A study of Caenorhabditis elegans with 2 samples.

Results

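The 9 genes described here encode the DREAM complex of C. elegans (lin-35, efl-1, dpl-1, lin-9, lin-37, lin-52, lin-53 and lin-54) and the replication clamp (pcn-1), and they are 9 of 19973 protein-coding genes on the nuclear chromosomes. They were chosen by name, after earlier results from the same region lists had shown ZTF-22 peaks at lin-35, lin-54 and pcn-1. Their counts, signal values and ranks are therefore a description, with no test. ZTF-22, a zinc finger protein, was profiled by chromatin immunoprecipitation and sequencing in whole young adult worms of both sexes, pooled, at 68 hours, from cultures synchronised by starving hatched L1 larvae. All animals belonged to 1 group with 2 biological replicates, strain OP676. Its animals are unc-119(tm4063) mutants with the stable transgene wgIs676, which joins ztf-22::TY1::EGFP::3xFLAG to a rescuing unc-119(+) copy. The tag stands at the C terminus of ZTF-22, and the protein was precipitated through GFP. The promoter that drives the transgene is not named in the labels. The cell types that contributed chromatin cannot be told apart in whole animals, and the lists hold no expression values with which to check them.

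DREAM is a repressor complex that keeps cell cycle genes silent in cells that do not divide. It joins a retinoblastoma-like pocket protein (LIN-35) and an E2F-DP heterodimer (EFL-1 and DPL-1) to the MuvB core (LIN-9, LIN-37, LIN-52, LIN-53 and LIN-54), in which LIN-54 contacts DNA. In C. elegans it also represses germ line genes in the soma, and several of its subunits were found as synMuv genes, which restrain vulval development. PCN-1, the worm PCNA, is the ring that tethers DNA polymerases to DNA, and PCNA genes are classical E2F targets in animals.

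Of the 9 genes, 4 had an optimal ZTF-22 peak with its summit within 2 kb of a transcript start: lin-54, lin-35, lin-9 and pcn-1. The same was true of 4.79% of all protein-coding genes, and since the genes were chosen with such peaks known, nothing is read from that difference. All 4 summits also lay in the promoter window, from 500 bp upstream to 200 bp downstream of a start, which held an optimal summit in 1.91% of all genes. The other 5 genes had none. For lin-53 and lin-52 weaker pooled regions were found, for efl-1 only a region near the end of the list, and for dpl-1 and lin-37 no pooled region within 2 kb, although 71.6% of all genes had one. A candidate list holds its 30000 strongest regions only, and the lowest signal in the pooled list was 35.7. A gene without a region therefore had no summit listed within 2 kb, which is not a measured value of 0.

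**Figure D1:**
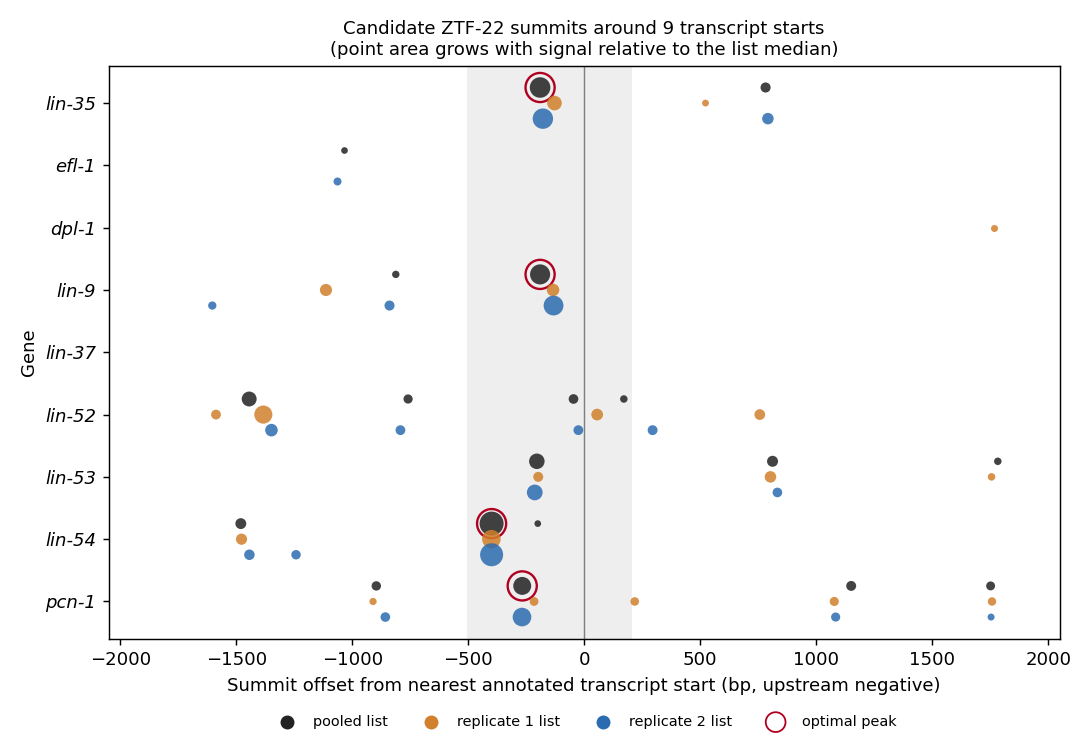
Summits within 2 kb of the annotated transcript starts of the 9 genes, plotted by offset in bp (upstream negative), for the pooled list and both replicates. Point area grows with signal relative to the list's median, red rings mark optimal peaks, and the grey band is the promoter window. The 4 ringed summits lie between 190 and 399 bp upstream, and the row of lin-37 is empty.

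In all, 19 pooled summits lay within 2 kb of the 9 genes, as did 19 in replicate 1 and 19 in replicate 2. The signal value used throughout is the authors' own score of each region, on an unnamed scale, and ranks count from 1 for the strongest region of a list. Values were compared between lists by rank, since the median signal was 48.4 in the pooled list, 19.2 in replicate 1 and 34.5 in replicate 2. Nearly all summits are the middle of regions of fixed width, 390 bp in the pooled list, so an offset locates the middle of a region. All coordinates are ce11. None of the 9 genes lay within 1 Mb of ztf-22 or unc-119, the genes that the transgene carries. The nearest was lin-52, at 1.08 Mb from unc-119.

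Of the pocket protein and E2F genes, lin-35 alone carried an optimal peak. The gene (WBGene00003020, chromosome I, 5807709 to 5815637, + strand) encodes the only pocket protein of the worm. Its peak had a pooled signal of 146.7, rank 399, with the summit at 5807519, in intergenic DNA 190 bp upstream of the single annotated start. In replicate 1 the matching region had a signal of 38.1, rank 946, with a summit 62 bp from the pooled one. In replicate 2 it had a signal of 103.6, rank 439, with a summit 12 bp away. Both replicates therefore placed this promoter among their 952 strongest regions, the number of optimal peaks, but replicate 1 only just. The summit lay between divergent genes: it was also 228 bp upstream of vps-51, which encodes a subunit of a vesicle tethering complex, and the starts of the pair are separated by 417 bp. The assignment to lin-35 rather than vps-51 cannot be told apart from these files. A second, weaker pooled region lay 782 bp inside lin-35, at rank 7345, where the gene overlaps C32F10.4 on the other strand.

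No comparable region was found at the genes of the E2F-DP heterodimer. At efl-1 (WBGene00001161, chromosome V, 16958590 to 16965675, - strand), which encodes the E2F subunit, the only pooled region had a signal of 35.9, rank 29645 of 30000, and its summit lay 1034 bp upstream. That summit was only 105 bp upstream of the divergent gene fbxa-90, and replicate 2 had a region there at rank 17792 but replicate 1 had none. At dpl-1 (WBGene00001061, chromosome II, 9169910 to 9172565, + strand), which encodes the DP subunit, the lists held a single region, in replicate 1, 1765 bp downstream of the start in a coding exon, at rank 26600. The start of dpl-1 lies inside T23G7.2, a gene on the other strand. The nearest pooled summit was 3479 bp away. The strongest within 10 kb was 3750 bp upstream, at rank 956 and a signal of 110.0, just below the weakest optimal peak, and it lay 348 bp upstream of W07A12.8.

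The MuvB core genes differed widely among themselves. The peak of lin-54 ranked 207, that of lin-9 434, the strongest regions of lin-53 and lin-52 ranked 1177 and 1371, and lin-37 had none. In the sequences below, capitals mark matches to the 7 words searched, on either strand. CTGCGTC was earlier seen often under these peaks. TTTGAA, and its variant form TTCGAA, belong to the cell cycle homology region to which LIN-54 binds. GGCGGGAA is one form of the E2F site and GCGCGAAA is another, TGATAA is a GATA site, and GAGAGA is a short repeat. The sequences come from the RefSeq genome of build WBcel235. Each lies under or beside the summit being described, up to 149 bp to each side, cut where an annotated transcript begins. It reads 5′ to 3′ on the strand of the member gene. Each printed sequence held GCGCGAAA or CTGCGTC. Those of lin-35 and lin-53 are not printed: within 100 bp of the pooled summit, lin-35 held only GAGAGA of the 7 words and lin-53 only TTTGAA. A match is a description of the letters and not a bound site.

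At lin-9 (WBGene00002998, chromosome III, 8900237 to 8904131, - strand), a conserved MuvB subunit, the optimal peak had a signal of 142.2, rank 434, with its summit at 8904321, 190 bp upstream of the start. Replicate 1 had a region there with a signal of 31.4, rank 2239, outside its 952 strongest, and replicate 2 one with a signal of 99.8, rank 498. The 2 replicate summits were 2 bp apart and 56 and 58 bp from the pooled one, towards the start, at offsets of -134 and -132 bp. No other protein-coding gene had its promoter window at this summit: the next protein-coding start was that of the divergent gene unc-32, which encodes a subunit of the vacuolar ATPase, 1294 bp away, and the non-coding gene ZK637.19 starts 1267 bp away. This peak was 3.1 times as strong as the next pooled region within 10 kb of the start, the largest such ratio among the 4 genes with a peak. The DNA around the summit (chromosome III, 8904172 to 8904470) held GAGAGA and GCGCGAAA on the other strand, and TTTGAA on both strands:
lin-9: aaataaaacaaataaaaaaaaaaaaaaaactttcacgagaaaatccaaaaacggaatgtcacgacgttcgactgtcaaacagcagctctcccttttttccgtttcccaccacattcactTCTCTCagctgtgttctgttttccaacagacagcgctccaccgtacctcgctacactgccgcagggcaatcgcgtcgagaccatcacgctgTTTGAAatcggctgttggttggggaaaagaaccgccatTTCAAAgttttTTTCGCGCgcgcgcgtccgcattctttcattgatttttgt

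At lin-54 (WBGene00003037, chromosome IV, 13241044 to 13243401, + strand), the DNA-binding subunit, the optimal peak had the highest signal among the 9 genes, 177.9, rank 207. Replicate 1 gave 51.1, rank 288, and replicate 2 gave 120.4, rank 267. The 3 lists placed the summit within 1 bp of each other, at 13240645 in the pooled list, and both replicates ranked it well inside their 952 strongest regions. The summit was 399 bp upstream of lin-54 but only 6 bp downstream of the start of rpl-12, a divergent gene for a protein of the large ribosomal subunit, in its 5' UTR. The starts of the pair are 392 bp apart, and the only other pooled region between them, 200 bp upstream of lin-54, ranked 29659. By distance, the start nearest to this peak was that of rpl-12. The intergenic DNA next to the summit (chromosome IV, 13240652 to 13240794) begins at the rpl-12 start and runs towards lin-54. It held TTTGAA on the other strand and GCGCGAAA on the strand of lin-54:
lin-54: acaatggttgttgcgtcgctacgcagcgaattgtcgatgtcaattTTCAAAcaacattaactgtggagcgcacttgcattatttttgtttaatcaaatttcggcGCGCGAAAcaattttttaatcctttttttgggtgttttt

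The genes lin-37 and lin-52, which encode small MuvB subunits, LIN-52 being the subunit that contacts the pocket protein, lie close behind another gene on the same strand. The gap to the upstream gene is 60 bp for lin-37 (WBGene00003022, chromosome III, 7070890 to 7072552, - strand, behind ZK418.5) and 126 bp for lin-52 (WBGene00003035, chromosome III, 9824083 to 9824750, - strand, behind ZK632.9). Whether either gene is transcribed together with the gene before it was not examined, and the window described is that at its own start. No list had a summit within 2 kb of lin-37, but the nearest pooled summit lay only just beyond that limit, 2110 bp from the start. The regions near ZK418.5 ranked 17165 and 20102 in the pooled list. At lin-52 the region nearest the start, 46 bp upstream, had a pooled signal of 57.0, rank 8995. A stronger region, with a signal of 98.1 and rank 1371, had its summit at 9826194, in intergenic DNA. That summit was 1444 bp upstream of lin-52 and 762 bp upstream of ZK632.9. It was also 984 bp downstream of the start of ZK632.10, on the same strand, and so nearer to both other starts than to that of lin-52. Here the order of the replicates was the reverse of that at the 4 peaks: replicate 1 had a signal of 49.8, rank 325, and replicate 2 a signal of 56.4, rank 2948. In a ranking of replicate 1 alone it would be among the 952 strongest regions. The sequence (chromosome III, 9826045 to 9826343) held the word CTGCGTC, with its middle 46 bp from the summit, and TTTGAA:
lin-52: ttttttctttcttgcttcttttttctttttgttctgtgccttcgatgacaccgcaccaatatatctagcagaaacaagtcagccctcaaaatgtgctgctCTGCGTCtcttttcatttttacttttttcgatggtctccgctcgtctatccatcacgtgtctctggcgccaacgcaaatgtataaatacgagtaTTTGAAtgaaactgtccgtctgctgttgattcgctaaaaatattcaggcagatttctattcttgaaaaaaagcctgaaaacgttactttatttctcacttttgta

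The remaining MuvB gene, lin-53 (WBGene00003036, chromosome I, 9618196 to 9619760, - strand), encodes a histone-binding WD40 protein that also serves other chromatin complexes. Its promoter region fell outside the optimal list, with a pooled signal of 103.0 and rank 1177 against a signal of 110.1 for the weakest optimal peak. Replicate 1 gave a signal of 23.6, rank 7535, and replicate 2 a signal of 74.95, rank 1184, with summits within 9 bp of the pooled one. The summit, at 9619964, was 204 bp upstream of lin-53 and 263 bp upstream of the divergent gene nra-2, so this promoter too is shared. In replicate 1 a region in an intron, 803 bp downstream of the start, was stronger (signal 28.2, rank 3573) than that of the promoter. The paralogue rba-1 lies directly downstream, and sharing of reads between the copies was not examined. The strongest pooled region within 10 kb, at rank 90, was 6335 bp upstream of lin-53 and 146 bp upstream of hsr-9.

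The replicates did not place the members alike. At each of the 4 optimal peaks the rank was better in replicate 2, by as little as 21 places at lin-54. Over all 855 of 952 optimal peaks (89.8%) matched within 100 bp in both replicates, 60.4% ranked better in replicate 2, and the median rank was 617 in replicate 1 and better in replicate 2. Among the 952 strongest regions of replicate 1, summits lay within 2 kb of 3 of the 9 genes (lin-35, lin-52 and lin-54, against 4.73% of all genes) and among those of replicate 2 within 2 kb of 4 (lin-35, lin-9, lin-54 and pcn-1, against 4.8%). In the promoter window the counts were 2 (lin-35 and lin-54, against 1.67%) and 4 (against 1.99%). Of the 9 genes, lin-35 and lin-54 alone were in both counts of both replicates. Over all 952 optimal peaks, 46.0% had a matched region among the 952 strongest of both replicates, so nothing is read from this split of the 4 peaks. The authors' −log10 q values were 2.86 at lin-54, 2.42 at lin-35, 2.46 at lin-9 and 2.28 at pcn-1 in the pooled list. In replicate 1 they were 2.28, 1.55, 0.837 and 0.186, and in replicate 2 they were 3.03 at the first 3 genes, the highest value of that list, and 2.62 at pcn-1.

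**Figure D2:**
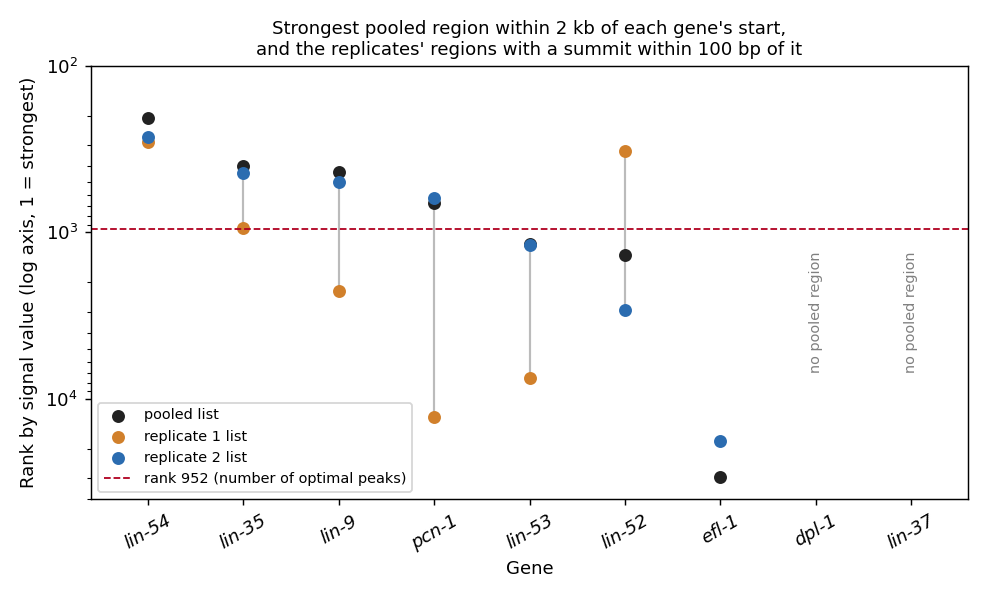
Rank by signal value (log axis, 1 is the strongest) of the strongest pooled region within 2 kb of each gene, with the ranks of the replicates' regions whose summits lie within 100 bp of it, joined by a grey line. The dashed line is rank 952. The points of lin-54 lie together between 207 and 288, whereas those of pcn-1 run from 624 to 12799.

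At pcn-1 (WBGene00003955, chromosome IV, 4047937 to 4049448, - strand) the peak stood out in replicate 2 but not in replicate 1. The pooled signal was 123.9, rank 665, with the summit at 4049715, 267 bp upstream of the start. Replicate 2 gave a signal of 92.4, rank 624, with a summit 1 bp away. Replicate 1 gave a signal of 20.2, rank 12799, with a summit 51 bp away, close to that list's median signal of 19.2. The strongest region of replicate 1 near the gene was another, which lay in a coding exon, 1078 bp downstream, and ranked 11056. Of the 855 matched optimal peaks, 36 (4.21%) ranked beyond 10000 in replicate 1, and 2 did so in replicate 2. Among the 9 genes, pcn-1 had the lowest-ranked optimal peak, with 30.1% of optimal peaks weaker than it, and lin-53 had the highest-ranked region outside the optimal list.

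The summit of pcn-1 lay in intergenic DNA, 557 bp long, behind wrt-5, a gene of the hedgehog-related warthog family on the same strand, and no other gene had its promoter window there. The DNA around it (chromosome IV, 4049566 to 4049864) held 3 words between the summit and the gene: TTTGAA, with its middle 37 bp from the summit, TTCGAA at 70 bp and GCGCGAAA at 82 bp:
pcn-1: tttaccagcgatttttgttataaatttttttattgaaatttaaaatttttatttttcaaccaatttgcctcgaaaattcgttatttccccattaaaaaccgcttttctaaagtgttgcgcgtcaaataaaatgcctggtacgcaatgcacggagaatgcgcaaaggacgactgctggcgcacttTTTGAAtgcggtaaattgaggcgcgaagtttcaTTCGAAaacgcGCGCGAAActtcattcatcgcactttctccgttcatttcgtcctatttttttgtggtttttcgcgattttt

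The E2F-type word GCGCGAAA was present in the promoters of lin-54, lin-9 and pcn-1, beside rather than at the pooled summits. Within 100 bp to either side of the pooled summit it was found at 1 of the 4 peaks (pcn-1). Within 150 bp it was found at 3 of the 4 (lin-54, lin-9 and pcn-1). Among all optimal peaks 1.05% and 1.58% held it in windows of these lengths, and among all pooled regions 1.03% and 1.44%. Among the optimal peaks in promoter windows, where all 4 lie, the shares were 2.06% and 3.24%. In promoter windows of the same extent as above, taken at the most upstream start, 3 of the 9 genes held it (lin-9, lin-54 and pcn-1), against 2.41% of all genes and 4.19% of genes with an optimal peak there. Its middle lay 76, 284 and 184 bp upstream of the starts of lin-9, lin-54 and pcn-1. At lin-9 the summits of replicates 1 and 2, at -134 and -132 bp, lay nearer to it than the pooled summit. At pcn-1 so did that of replicate 1, at -216 bp. None of the other 6 genes held GCGCGAAA, and GGCGGGAA was found in none of the 9 promoter windows, against 2.36% of all genes. CTGCGTC was found in the window of efl-1 alone, 177 bp upstream, against 7.81% of all genes and 16.5% of those with an optimal peak there, and efl-1 had no such peak. TTTGAA was in all 9 windows and in 88.9% of all genes. TGATAA was in 4 of the 9 windows (lin-35, lin-9, lin-54 and lin-37), against 53.8% of all genes. GAGAGA was in 4 (lin-35, lin-9, lin-37 and dpl-1), against 36.8%. TTCGAA was in 4 (lin-54, pcn-1, lin-52 and lin-37), against 36.5%. The genes and words were chosen with earlier results of these data known, and promoter windows were searched after the data were examined. These counts are therefore a description, with no test, and nothing is read from the differences.

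CTGCGTC and TGATAA were more frequent under optimal peaks than under pooled regions in general, and neither lay within 100 bp of the 4 summits. The share with CTGCGTC was 11.9% of optimal peaks and 3.6% of pooled regions. That word was searched because it had been seen under these same peaks, so its higher share there is not independent. For TGATAA the shares were 34.9% and 17.5%. GAGAGA was found at lin-35 and lin-9, against 35.5% and 16.4%. TTTGAA was found at lin-54, lin-9 and pcn-1, against 27.4% and 33.7%, and TTCGAA at pcn-1 alone, against 9.45% and 9.6%. With 4 windows these are counts only, with no test. The GC content of the 4 windows ranged from 38.3% at lin-35 to 52.2% at lin-9, around the median of 43.8% over all optimal peaks.

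Among all protein-coding genes, each of the 4 genes with a peak stood in the top 4%. Having a peak already fixes a place in the top 4.79%, because the optimal peaks are the strongest pooled regions. Only the order within that share is described here. For lin-54, 1.11% of genes had a stronger pooled region within 2 kb, for lin-35 2.06%, for lin-9 2.2% and for pcn-1 3.36%. The values were 5.8% for lin-53, 6.71% for lin-52 and 71.1% for efl-1. Sharing of promoters with another protein-coding gene was found at 2 of the 4 peaks, lin-35 with vps-51 and lin-54 with rpl-12. Over all 340 optimal summits in promoter windows, 14.4% lay in the windows of several genes. The offsets of the 4 summits, -190, -190, -267 and -399 bp, lay on the upstream side, where the median over those 340 summits was -152 bp and the quartiles were -276 and -58 bp. Each of the 4 peaks was the strongest pooled region within 10 kb of its gene.

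**Figure D3:**
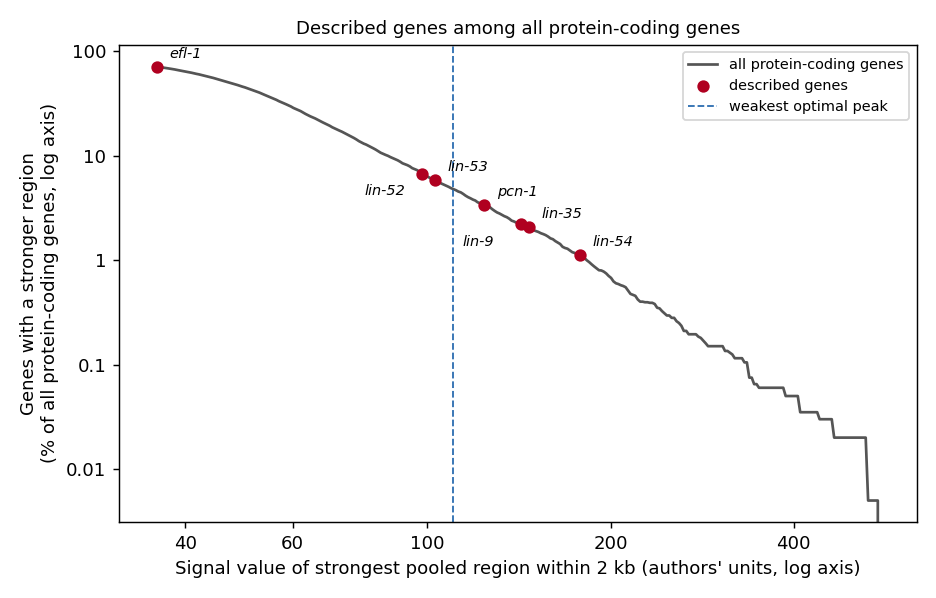
For each signal value of the strongest pooled region within 2 kb of a gene (x axis, authors' units, log scale), the share of all protein-coding genes with a stronger one (y axis, log scale). Red points are the 7 described genes that have a pooled region, and the dashed line is the weakest optimal peak. The 4 genes right of the line lie between 1.11% and 3.36%.

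In 3 further gene lists, named below, the share with an optimal peak ran from 2.63% to 4.44%, with 1 or 2 genes in each list. Over all genes it was 4.79%. Of 24 listed synMuv and chromatin genes, 1 (4.17%) had one within 2 kb: epc-1, which encodes an enhancer of Polycomb homologue. Its peak had a signal of 132 and rank 549, 113 bp upstream on chromosome III. Of 38 cell cycle regulators, 1 (2.63%) had one: cye-1, the cyclin E gene, with rank 508, 1009 bp downstream of its start. Of 45 DNA replication genes, 2 (4.44%) had one, tim-1 and rpa-2. The peak of tim-1, a homologue of the replication fork protein Timeless, had rank 437, 242 bp upstream. In replicates 1 and 2 the start nearest to the summit there was that of Y75B8A.23, 224 and 226 bp away. The peak of rpa-2, a subunit of the single-strand binding protein, had rank 815, 694 bp upstream. The median signal of the strongest pooled region was 55.6, 56.2 and 56.8 in the 3 lists, over the genes that had one, and 55.3 over all such genes. By the 952 strongest regions of replicate 1, 2 synMuv and chromatin genes (8.33%), 2 regulators (5.26%) and 2 replication genes (4.44%) had one within 2 kb. The share of all genes was 4.73%. By those of replicate 2, 1 synMuv and chromatin gene (4.17%), 2 regulators (5.26%) and 2 replication genes (4.44%) had one, against 4.8%. The genes counted were not the same: epc-1, cye-1 and tim-1 were in both replicates' counts, and the others in a single one. In neither was rpa-2, whose peak ranked 1577 in replicate 1 and 1106 in replicate 2. With counts this small, nothing is read from these shares. The clamp loader gene rfc-3 had a region at rank 826 in replicate 1, 1115 bp downstream of its start, that ranked 25119 in replicate 2.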

How the data were processed

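Per the labels, sonicated chromatin was precipitated with an anti-GFP antibody, and the files describe 2 biological replicates. The authors deposited narrowPeak lists on ce11: 30000 candidate regions for each replicate and for the pooled reads, and 952 optimal peaks that passed an IDR (irreproducible discovery rate) threshold. Each list was made against the same control alignment, per the file descriptions. The deposited signal values and −log10 q values are the authors' own. The caller, aligner and filters were not given in the sources used here. Read depth is unknown, so no counting interval is given. The optimal peaks are the 952 pooled regions of highest signal.

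Summits were placed by the WBcel235 annotation (Ensembl release 115), whose chromosome lengths held all regions. Every summit within 2 kb of an annotated start was listed, and summits of different lists were matched within 100 bp. The background was 19973 protein-coding genes. Words were searched on both strands of RefSeq's WBcel235 genome, and the search of promoter windows was added after the data were examined. The members, gene lists and words were chosen with earlier results of these data known, and no test was run. Of the genes in the 3 lists, 45 of 48 replication genes and all others were found by name. Named are all 9 members, genes sharing their summits and list genes with an optimal summit; lin-37's and dpl-1's neighbours, hsr-9, W07A12.8 and rfc-3 were named after their values were seen. Python 3.11.15, numpy 2.4.6 and pandas 2.3.3 were used, and the assignment of summits to starts was checked on planted positions. Alternatives covered distances, thresholds, each replicate alone, ranking by q, matching rules and word windows.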

Additional observations from a re-analysis of the deposited data

How the results depend on the processing

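The count of 4 genes with an optimal summit within 2 kb stayed between 3 and 6: 4 within 1 kb, in the promoter window and from the most upstream start only, 3 with the strongest 50% of the optimal peaks and 6 with pooled regions up to 200% of their number. Without replicate 1 or replicate 2 it was 4 and 3. In the promoter window the count ranged from 2 (without replicate 2) to 5 (with the 200% list). It was 3 with 300 bp upstream to 100 bp downstream or the strongest 50% of peaks. It was 4 without replicate 1 or with 1 kb upstream. All 4 peaks were matched in both replicates within 100 bp, within 200 bp or by an overlap of 1 bp, but only 1, that of lin-54, within 50 bp, where 626 of 952 optimal peaks were matched. The fixed-width regions limit how closely summits can be compared.

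Ranking by q in place of signal gave ranks of 442 for lin-35, 407 for lin-9, 645 for pcn-1, 1152 for lin-53, 1384 for lin-52 and 29717 for efl-1. It put lin-54 in a tie of 365 regions at rank 1. Counts of word matches changed in 5 of 14 alternatives. Among them was GCGCGAAA, found at 0, 1 and 3 of the 4 peaks within 50, 100 and 150 bp of the pooled summit. Ranking by p was not run, since the column of p-values holds no values. With 2 replicates in 1 group, no variation between conditions could be measured.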
